A study of Solanum lycopersicum with 28 samples.

Results

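The H3K23me3 peaks described here are those that lie within H3K9me2-marked chromatin of tomato leaves. They were chosen by their position alone, as H3K23me3 peaks on chromosomes 1 to 12 with at least 50% of their length covered by H3K9me2 peaks. The rule took 56106 of 122015 H3K23me3 peaks (46.0%). They are called member peaks below, and 52797 of them (94.1%) lay wholly within H3K9me2. A further 63134 H3K23me3 peaks shared 0 bp with H3K9me2 and are called outside peaks. The remaining 2775 were covered in part, by less than the limit, and entered neither set. H3K9me2 itself covered 42.8% of the 12 chromosomes in 66570 peaks, so that the share of H3K23me3 peaks within it was close to its share of the sequence.

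The study profiled 26 histone modifications and RNA polymerase II (Pol2) by chromatin immunoprecipitation and sequencing (ChIP-seq), with an Input of chromatin that met no antibody. All 28 libraries came from leaves of wild-type (WT) M82 tomato, a cultivated variety, with no treatment, from plants aged 4 weeks and kept at 24 °C with 16 h of light a day. The groups used here are thus antibody targets (H3K23me3, H3K9me2 and the other 25 target lists) and the Input, all of 1 genotype and 1 tissue. Each had 1 library per the labels, and the study's methods give 2 biological replicates without stating whether a list pools them. No difference below can therefore be set against the variation between plants, and the peaks of a list are not replicates of each other, because they share 1 library.

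Methylation of lysine 9 of histone H3 to the dimethyl state is, in plants, the classical mark of constitutive heterochromatin. It is laid down by KRYPTONITE and related methyltransferases, works in a loop with DNA methylation, and keeps transposable elements silent. Lysine 23 of the same histone tail can be mono-, di- or trimethylated. H3K23me1 is placed by the study among constitutive heterochromatin marks, together with H3K14me1, H3K27me1, H3K56me1, H3K56me2 and H3K9me2. H3K23me3 is placed by it with the euchromatin marks, which also hold Pol2, 13 acetylations, H3K4me1, H3K4me2, H3K4me3 and H3K36me3. H3K27me3, the Polycomb mark of silent genes, and H3K27me2 form its facultative heterochromatin class. These classes were drawn up in part from these same libraries, so they are no independent evidence about the member peaks.

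The member peaks were shallow and narrow. The read pileup is the number of sequenced fragments that overlap the highest position of a peak, its summit, and it had a median of 13 reads in member peaks (25th to 75th percentile 12 to 15) and of 14 reads in outside peaks (12 to 24). Fold enrichment, the ratio of pileup to local background, had a median of 2.05 (1.89 to 2.23) in member peaks and of 2.21 (1.998 to 3.35) in outside peaks. Width had a median of 213 bp (173 to 275) in member peaks and of 254 bp (187 to 524) in outside peaks. The sets thus overlapped in the lower part of each range and parted in the upper tail. The 95th percentile of the pileup was 17 reads in member peaks and 82 reads in outside peaks, and the maximum was 51 reads in member peaks and 178 reads in outside peaks. The solved local background had medians of 5.91 reads at member peaks and 5.68 reads at outside peaks, and its upper tail parted too, with 95th percentiles of 6.96 reads at member peaks and 9.74 reads at outside peaks. The total depth of the libraries is unknown, since peak lists hold no read totals.

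**Figure D1:**
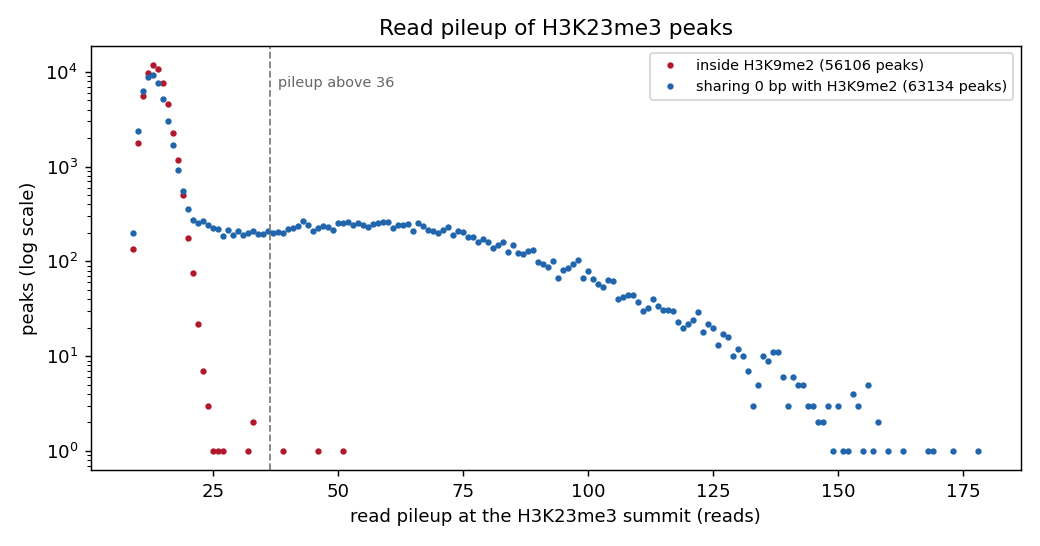
Number of H3K23me3 peaks (log scale) at each read pileup of the summit, for 56106 peaks inside H3K9me2 (red) and 63134 peaks sharing 0 bp with it (blue). Both sets pile up near a median of 13 or 14 reads, and above the dashed line at 36 reads only 3 peaks are red.

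The H3K23me3 list was called at a p-value limit of 0.05 without correction for multiple testing, and few member peaks passed stricter limits. A q-value under 0.05 was met by 15094 member peaks (26.9%, 95% Wilson interval 26.5 to 27.3) and 30056 outside peaks (47.6%, 47.2 to 48.0), against 37.7% of all H3K23me3 peaks. Intervals of this kind cover counting error only. The filter with which the study chose peaks for its chromatin states, a pileup above 36 and a fold above 1.5, kept 3 member peaks (0.00535%) and 13181 outside peaks (20.9%), against 10.8% of all peaks. A pileup above 17 was reached by 1959 member peaks (3.49%) and 18501 outside peaks (29.3%), against 16.9% of all. Peaks of the smallest width in the list, 161 bp, made up 17.1% of member peaks and 12.7% of outside peaks. Weak peaks were, in addition, denser within H3K9me2. Those with a pileup of 17 or less numbered 158 per Mb of H3K9me2 sequence and 97.4 per Mb of the sequence outside it.

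Peaks on either side of the limit of the rule had similar folds. The 77 member peaks with 50% to under 51% coverage had a median fold of 2.05 (lowest 1.66, highest 2.996), and the 56 peaks with 49% to under 50% coverage had a median fold of 2.09 (lowest 1.58, highest 3.02). At least 1 of the 18 euchromatin lists held the summit at 20 of these 77 member peaks and at 18 of the 56 others, against 48.1% of all H3K23me3 peaks.

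The Input overlap of member peaks was the lower one. At least 1 bp was shared with an Input peak by 8690 member peaks (15.5%, 15.2 to 15.8) and by 25751 outside peaks (40.8%, 40.4 to 41.2), against 28.8% of all H3K23me3 peaks. The summit lay in an Input peak for 5.72% of member peaks and 16.0% of outside peaks, against 11.1% of all. Input peaks covered at least 50% of the length in 3.67% of member peaks and 9.43% of outside peaks, against 6.68% of all. Counted in bases, Input peaks took 5.68% of member sequence and 18.4% of outside sequence. They took 3.78% of all H3K9me2 bases and 7.59% of all bases outside H3K9me2, so that the Input list was itself thinner in H3K9me2. Part of the gap went with pileup. Among peaks with pileups of 11 to 17 reads, 15.4% of member peaks and 26.8% of outside peaks touched an Input peak. The share was lower in member peaks on 12 of 12 chromosomes, where it ranged between 11.4% and 17.1%, against 37.7% to 46.9% for outside peaks. Seen from the other side, 103822 Input peaks lay within H3K9me2 by the same rule, and 8594 of them (8.28%) touched a member peak.

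**Figure D2:**
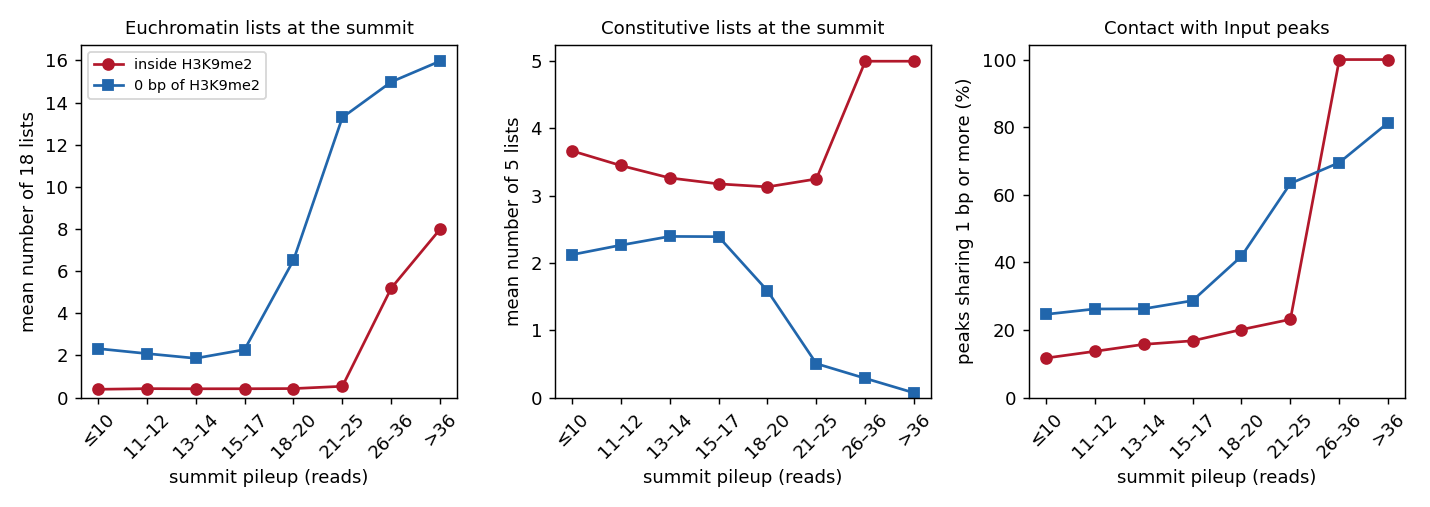
Mean number of 18 euchromatin lists (left) and of 5 constitutive heterochromatin lists (middle) that hold the summit, and percent of peaks sharing at least 1 bp with an Input peak (right), by class of summit pileup, for peaks inside H3K9me2 (red circles) and peaks sharing 0 bp with it (blue squares). The red points of the last 2 classes stand for 8 peaks in all, whereas the blue line climbs to a mean of 16.0 euchromatin lists over 13182 peaks.

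The other constitutive heterochromatin marks were present at most member summits. H3K23me1, the monomethyl form of the same lysine, held 69.6% of member summits (69.2 to 69.9) and 38.5% of outside summits (38.1 to 38.9). H3K14me1 held 69.9% of member summits and 31.7% of outside summits. H3K27me1, the mark that in Arabidopsis is set by ATXR5 and ATXR6 and restrains over-replication of heterochromatin, held 65.1% of member summits and 45.6% of outside summits. H3K56me1 held 64.8% of member summits and 34.7% of outside summits, and H3K56me2 held 60.9% of member summits and 22.7% of outside summits. Each of these gaps was smaller at matched strength. Among pileups of 11 to 17 reads H3K27me1 held 65.0% of member and 59.0% of outside summits, and H3K56me2 60.7% and 31.4%. With outside peaks weighted to the member peaks' distribution over windows of 1 Mb, the outside share was 63.1% for H3K27me1 and 34.6% for H3K56me2. Of the 5 lists, a mean of 3.31 lay at member summits with a pileup of 17 or less and 2.34 at such outside summits. All 5 lay at 10848 member summits (19.3%) and at 6.51% of outside summits, against 12.7% of all. None of the 5 lay at 761 member summits (1.36%) and at 35.5% of outside summits, against 19.0% of all. These lists are broad and cover much of the genome: they took between 44.9% (H3K27me1) and 57.8% (H3K14me1) of all H3K9me2 bases. At the summits of Input peaks within H3K9me2 the shares were higher, at 57.1% for H3K27me1, 59.2% for H3K56me1 and 58.3% for H3K56me2. They were 62.4% for H3K23me1 and 66.8% for H3K14me1. Both levels belong beside the member shares.

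H3K23me1 at member summits varied little between whole chromosomes. By chromosome it ranged between 68.6% and 70.6% at member summits and between 29.6% and 44.3% at outside summits, and it was higher at member summits on 12 of 12 chromosomes. It also fell off with distance. At 5 kb to either side of the summit H3K23me1 covered 44.8% of the positions for member peaks, against 69.6% at the summit. Around Input peaks within H3K9me2 it covered 47.6% at 5 kb and 62.4% at the summit. A rise of H3K23me1 at the summit was therefore not particular to the H3K23me3 list.

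Facultative heterochromatin marks parted. H3K27me2 held 55.98% of member summits (55.6 to 56.4) and 50.9% of outside summits (50.6 to 51.3), beside 38.9% of all H3K9me2 bases. Among peaks with pileups of 11 to 17 reads its order turned, with 56.04% of member summits and 58.3% of outside summits. H3K27me3 held 259 member summits (0.462%) and 16.9% of outside summits, and it took 0.255% of all H3K9me2 bases.

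H3K36me3 was the one euchromatin mark that was common at member summits. In plants this mark is deposited along transcribed gene bodies, mainly by SDG8 in Arabidopsis. It held 19567 member summits (34.9%, 34.5 to 35.3) and 21793 outside summits (34.5%, 34.1 to 34.9), against 34.3% of all H3K23me3 summits. The equal shares covered a difference at matched strength, since among pileups of 11 to 17 reads the shares were 34.9% of member summits and 16.7% of outside summits. When outside peaks were weighted to the member peaks' distribution over windows of 1 Mb, the outside share was 19.2%. By chromosome, H3K36me3 was higher at member summits on 6 of 12. The H3K36me3 list itself was unlike the other euchromatin lists, because 74.0% of its peaks lay within H3K9me2 by the same rule and it took 31.3% of all H3K9me2 bases. By contrast the share within H3K9me2 was 22.9% for H3K4me2, 21.1% for H3K4ac and under 1% for each of the other 15 euchromatin lists apart from H3K23me3.

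Member peaks in H3K36me3 and those without it had the same H3K23me3 values. Fold had a median of 2.05 in each, and pileup a median of 13 reads. A q-value under 0.05 was met by 26.9% of each. They differed in Input contact, at 11.2% of the member peaks in H3K36me3 and 17.8% of those without. The profile of H3K36me3 around the summit also had a form that Input peaks lacked. It covered 34.9% of member summits, 29.8% of positions 1 kb toward higher coordinates and 29.4% of those 1 kb toward lower ones. Around Input peaks within H3K9me2 the order was turned, with 23.6% at the summit and 30.7% at 1 kb. The sources used here do not state whether the Input served as control when H3K36me3 peaks were called, and the part of peak calling in this dip was not tested.

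**Figure D3:**
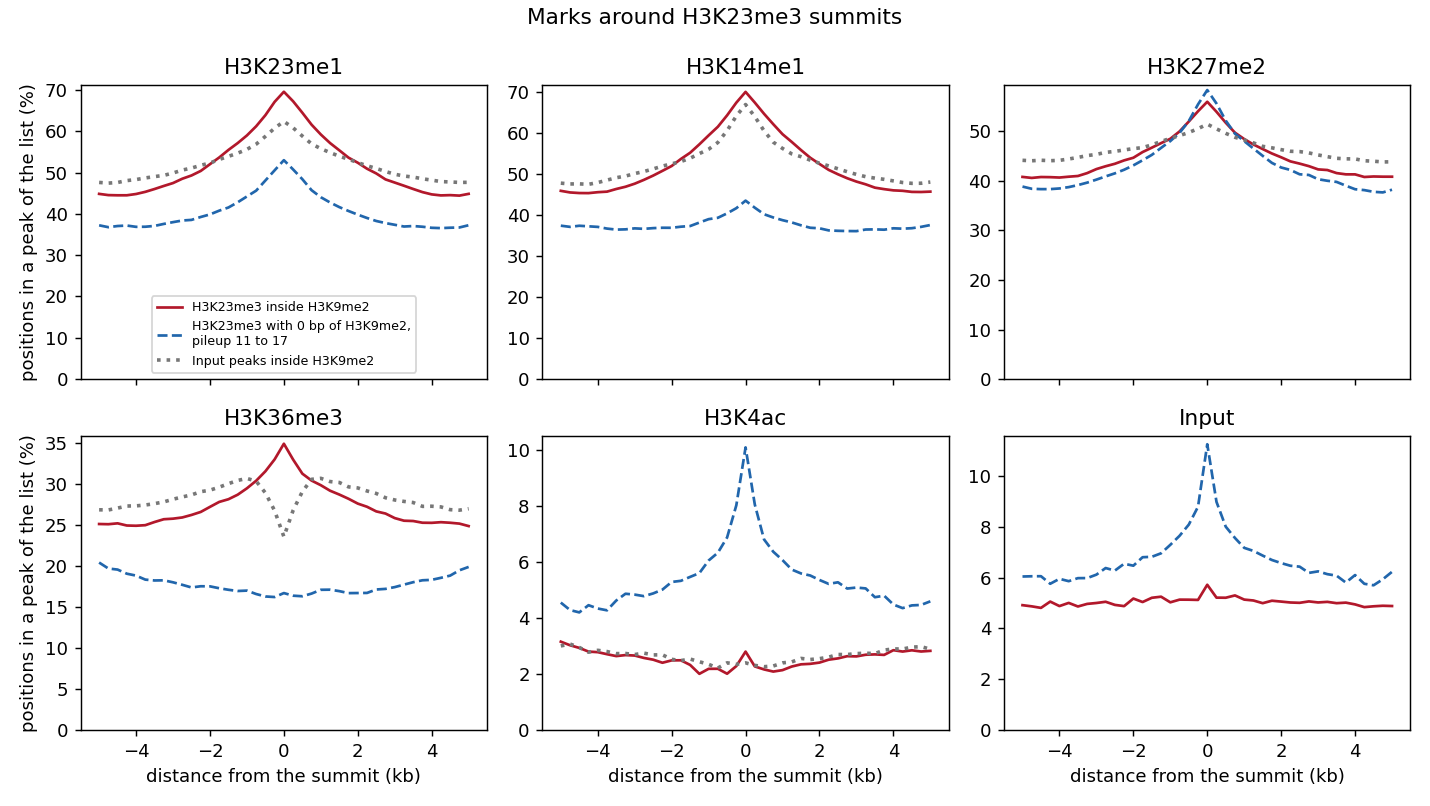
Percent of positions that lie in a peak of each of 6 lists, at distances up to 5 kb from the summit, for H3K23me3 peaks inside H3K9me2 (red), H3K23me3 peaks sharing 0 bp with H3K9me2 and with pileups of 11 to 17 reads (blue, dashed) and Input peaks inside H3K9me2 (grey, dotted, not drawn for the Input list itself). H3K36me3 reaches 34.9% at the red summits and dips to 23.6% at the grey ones.

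Marks of active promoters were almost absent from member summits, as they were from H3K9me2 sequence as a whole. H3K4me3, found at the starts of transcribed genes, lay at 5 member summits (0.00891%) and 36.3% of outside summits, and it took 0.0057% of all H3K9me2 bases. H3K9ac, H3K14ac, H4K8ac and H4K12ac each lay at 1 member summit, H4K16ac at 2, H4K20ac at 4, H3K18ac and H3K79ac at 5 each, H4K5ac at 12, and H3K36ac and H3K56ac at 21 each. A count of 0 among the member peaks would have allowed a share of up to 0.00535%. At outside summits these 11 acetylations lay at no less than 27.9%. Pol2 lay at 29 member summits (0.0517%) and 20.5% of outside summits, and it took 0.0669% of all H3K9me2 bases. H3K27ac, a mark of active promoters and enhancers, lay at 87 member summits (0.155%) and 38.4% of outside summits, and it took 0.0576% of all H3K9me2 bases. The difference from outside peaks held among weak peaks, since at pileups of 11 to 17 reads H3K4me3 lay at 0.00766% of member summits and 12.2% of outside summits.

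H3K4me2, H3K4ac and H3K4me1 were the exceptions, at low levels. H3K4me2, which in plants marks gene bodies and is found at active and silent genes, held 1906 member summits (3.40%, 3.25 to 3.55) and 36.9% of outside summits. It took 2.43% of all H3K9me2 bases. H3K4ac, an acetylation of the lysine that is otherwise methylated at promoters, held 1575 member summits (2.81%, 2.67 to 2.95) and 32.4% of outside summits. It took 1.51% of all H3K9me2 bases. H3K4me1, a mark of gene bodies, held 439 member summits (0.782%, 0.713 to 0.859) and 11.7% of outside summits. It took 1.04% of all H3K9me2 bases, so its share of member summits lay below that level. These 439 member summits stood apart from the other member peaks in their other marks: 438 of them lay in H3K36me3 and 287 in both H3K36me3 and H3K4me2. They had a mean of 2.31 constitutive heterochromatin lists, against 3.31 in the other member peaks, and 20.7% of them lay in the outer 10% at either end of a chromosome, where 4.11% of member peaks and 17.2% of all H3K23me3 peaks lay. They were singled out after their values were seen, and the difference was not tested. Their H3K23me3 fold, with a median of 2.05, was that of the rest.

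**Figure D4:**
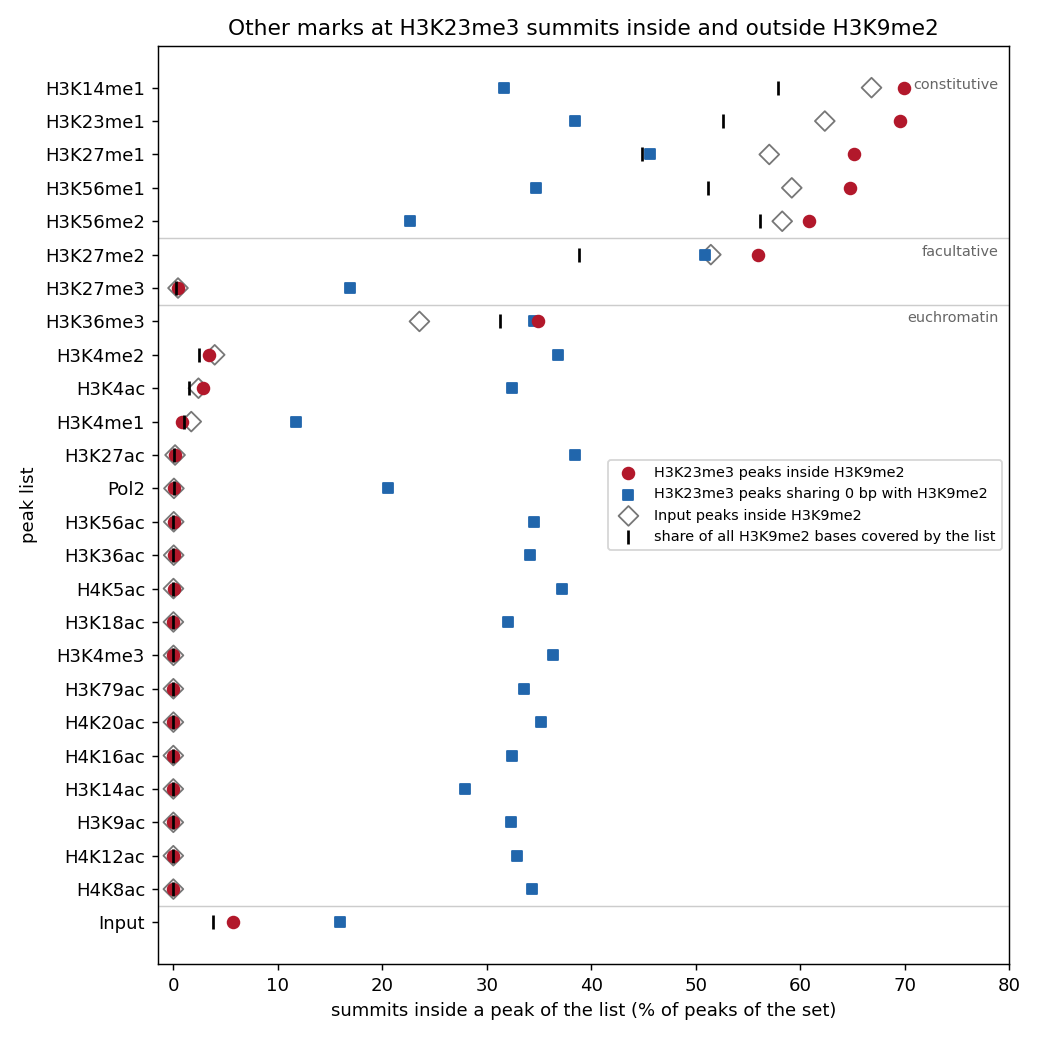
Percent of summits that lie in a peak of each list, by the classes of the study, for H3K23me3 peaks inside H3K9me2 (red circles), H3K23me3 peaks sharing 0 bp with it (blue squares) and Input peaks inside H3K9me2 (open diamonds), with the percent of all H3K9me2 bases that the list covers (black ticks). Red circles lie between 60.9% and 69.9% in the 5 constitutive lists and below 3.5% in each euchromatin list except H3K36me3, where they lie at 34.9%.

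Counted per peak, 34491 member summits (61.5%) lay in none of the 18 euchromatin lists. At least 1 held 38.5% of member summits and 57.6% of outside summits, against 48.1% of all. Of the 19957 member summits in exactly 1 such list, 17956 (90.0%) lay in H3K36me3, 989 in H3K4ac and 946 in H3K4me2. With H3K36me3 set aside, at least 1 euchromatin list held 3659 member summits (6.52%, 6.32 to 6.73) and 53.1% of outside summits (52.7 to 53.5), against 30.7% of all. At least 10 of the 18 lists met at 1 member summit and at 20628 outside summits (32.7%), against 16.9% of all. Combinations were counted over H3K36me3, H3K27me2 and the 5 constitutive lists alone, whatever other lists held the summit. The commonest was H3K27me2 with all 5 constitutive lists, at 4477 member summits (7.98%), and the next was the same with H3K36me3, at 2543 (4.53%).

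The contrast between classes was tested over target libraries. For each list the log2 ratio of its share of member summits to its share of outside summits was taken, with 0.5 added to each count. The mean was 0.97 ± 0.34 (SD, n = 5 libraries) for constitutive heterochromatin, with all 5 above 0, between 0.51 for H3K27me1 and 1.42 for H3K56me2. The mean was −9.56 ± 4.18 (SD, n = 18 libraries) for euchromatin. Of these 18, H3K36me3 alone lay above 0, at 0.01, and without it the mean was −10.12 ± 3.54 (SD, n = 17). The difference, constitutive minus euchromatin, was 10.53 on the log2 scale. It had p = 5.94e-05 in a two-sided exact permutation test over 33649 reassignments of the class names, the smallest value that this test can give. The size of the difference rests on lists with very few member summits and on the added 0.5. H3K9me2 chose the member peaks and defines one of the classes, so the test describes how far the other lists follow H3K9me2 and gives no independent support for the direction.

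The second comparison stayed within H3K9me2, with Input peaks chosen by the same coverage rule in place of outside peaks. H3K23me1 held 69.6% of member summits and 62.4% of these Input summits, and H3K36me3 held 34.9% of member summits and 23.6% of these Input summits. H3K14me1 held 69.9% of member summits and 66.8% of Input summits. H3K4me1 held 0.782% of member summits and 1.72% of Input summits, and H3K4me2 held 3.40% of member summits and 3.96% of Input summits. H3K27ac held 0.155% of member summits and 0.167% of Input summits. The mean log2 ratio of member to Input summits was 0.28 ± 0.93 (SD, n = 18 libraries) for euchromatin, with 10 of 18 above 0. H3K14ac and H4K12ac, the highest, rest on 1 member summit and 0 Input summits each. The mean was 0.12 ± 0.06 (SD, n = 5 libraries) for constitutive heterochromatin, with all 5 above 0. The difference was taken here as euchromatin minus constitutive, the reverse of the order used against outside peaks. It was 0.16 with p = 0.821 in the two-sided exact permutation test over 33649 reassignments, whose smallest value is 5.94e-05. Without H3K14ac, or without H4K12ac, the difference was 0.03, and over lists with 50 or more member summits, a choice made after seeing the data, it turned to −0.25. The difference was smaller than the spread between the lists of the euchromatin class, and the missed threshold does not show that the sets are alike.

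**Figure D5:**
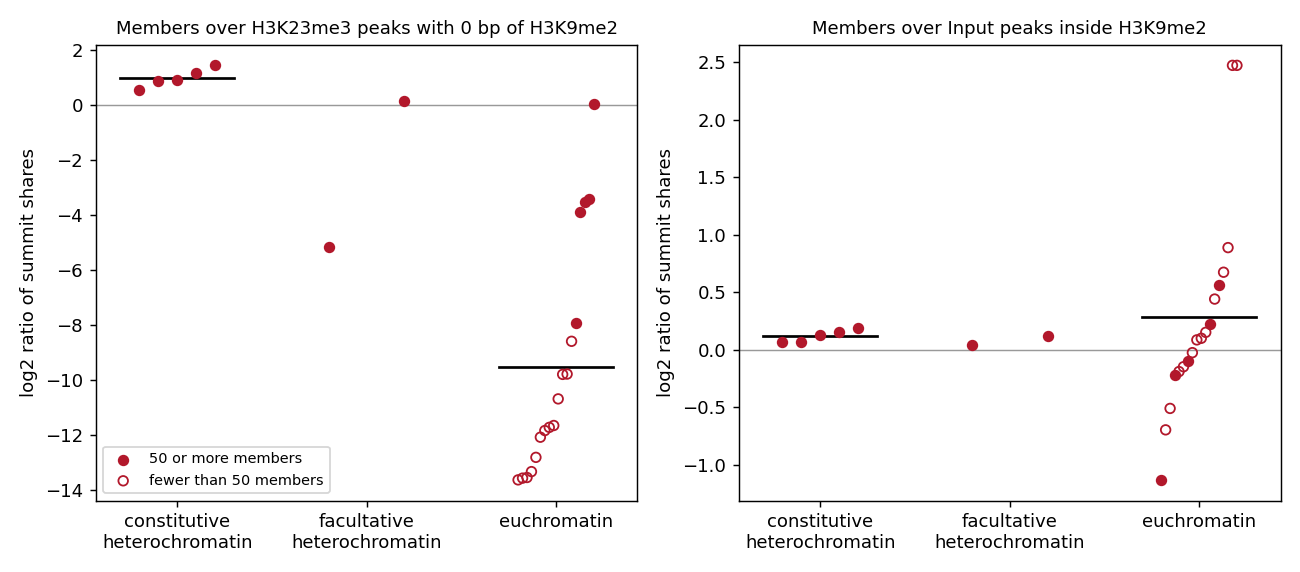
Log2 ratio of the share of summits in each list, for H3K23me3 peaks inside H3K9me2 over H3K23me3 peaks sharing 0 bp with it (left) and over Input peaks inside H3K9me2 (right). Each point is 1 list, open where it holds fewer than 50 of the summits inside H3K9me2, and black lines are class means, 0.97 and −9.56 on the left and 0.12 and 0.28 on the right for constitutive heterochromatin and euchromatin.

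H3K4ac offered a second list of narrow peaks within H3K9me2. Its 23629 peaks there were near the member peaks in some lists and not in others. H3K23me1 lay at 69.6% of member summits and 64.4% of these H3K4ac summits, H3K27me2 at 55.98% of member and 58.8% of H3K4ac summits, and H3K36me3 at 34.9% of member and 33.6% of H3K4ac summits. H3K14me1 lay at 69.9% of member and 63.8% of H3K4ac summits, and H3K56me2 at 60.9% of member and 55.4% of H3K4ac summits. H3K4me1 lay at 0.782% of member and 0.0973% of H3K4ac summits, and Pol2 at 0.0517% of member and 0.0127% of H3K4ac summits. The solved background floor of the libraries was 5.34 reads for H3K23me3, 4.89 reads for the Input and 3.41 reads for H3K4ac. This floor depends on fragment length as well as on depth, and the smallest width was 161 bp in member peaks, 75 bp in Input peaks inside H3K9me2 and 160 bp in H3K4ac peaks inside it, so the floors cannot be compared as depths.

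Member peaks followed H3K9me2 along the chromosomes, which the rule in part brings about, because it chose them by H3K9me2 coverage. Their share of H3K23me3 peaks ranged between 37.54% on chromosome 2, where H3K9me2 covered 33.8% of the bases, and 51.8% on chromosome 12, where it covered 47.7%. The share of peaks exceeded the share of bases on 12 of 12 chromosomes, by 1.08 points on chromosome 6 to 4.60 points on chromosome 4. Density ranged between 139 member peaks per Mb of H3K9me2 on chromosome 6 and 171 per Mb on chromosome 4. The outer 10% at either end of a chromosome held 2306 member peaks (4.11%, 3.95 to 4.28) and 29.3% of outside peaks, against 17.2% of all. By the rule member peaks lie only where H3K9me2 lies, and its share of bases in these zones is not given here. The contrast is therefore not shown to be a trait of H3K23me3. Chromosome 2 stood apart, with 21.3% of its member peaks in these zones, 604 of them at its start, against 20.1% of its outside peaks, so that the order of the sets was turned there. On the other 11 chromosomes the share was between 1.18% and 7.01% of member peaks and between 26.8% and 34.2% of outside peaks. The nearest outside peak with a pileup above 36 lay at a median of 140 kb from member summits and of 64.6 kb from outside summits with pileups of 17 or less. Another H3K23me3 summit lay at a median of 1939 bp from member summits and 2586 bp from outside summits.

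Within H3K9me2 domains member summits lay somewhat nearer to the edges than the domains' bases. Of 55532 member summits inside an H3K9me2 peak, 10.9% lay less than 250 bp from its edge, against 9.27% of all H3K9me2 bases, and 33.7% lay less than 1000 bp from it, against 29.5% of the bases. The median distance was 1799 bp. At least 1 member summit lay in 27501 H3K9me2 peaks (41.3%). Density was higher in weaker domains: it was 140 member peaks per Mb in the 25% of H3K9me2 peaks with the highest H3K9me2 fold, where the median length was 7780 bp, and 209 per Mb in the 25% with the lowest, where the median length was 889 bp. The part of domain length in this order was not tested. The H3K9me2 peak with the most member peaks, chr8:23471162-23563006 (M82 genome version 1, 91845 bp, H3K9me2 fold 2.05), held 24 of them. Their pileups ran between 11 and 18 reads with a median of 13. Of the 24, 12 lay in H3K36me3 and 4 touched an Input peak.

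A handful of member peaks were strong, and their marks were unlike those of the bulk. Of 8 with a pileup above 25, all had the summit in an Input peak, in H3K36me3, in H3K27ac and in all 5 constitutive heterochromatin lists. Contact with an Input peak by at least 1 bp is a looser measure than the summit. It was found at all 8 and at 79.7% of outside peaks above that pileup. Of those outside peaks, 99.97% lay in H3K4me3 and the mean was 15.8 euchromatin lists. The 8 member peaks had a mean of 6.25, and none lay in H3K4me3. The highest fold was 8.20 at chr8:66728324-66728593, with a pileup of 51 reads and 8 euchromatin lists. The second, 7.15, was at chr8:66730476-66730725, with 46 reads and 9 euchromatin lists. These positions lay 6.57 and 4.43 kb from the end of the sequence, taken as the last peak end in any list. The following ones lay at the end of chromosome 12. The peak chr12:70392060-70392795 had a fold of 6.31 and 39 reads at 73 bp from the end, and chr12:70390413-70391411 had a fold of 5.36 and 33 reads at 1.46 kb from it. The fifth, chr3:28964839-28965084, had the same fold of 5.36 and lay far from any end, with H3K4ac, H3K4me2, H3K27ac, H3K36me3 and H3K56ac at its summit. In all, 6 of the 8 lay within 20 kb of a sequence end, where 28 member peaks (0.0499%) and 31 outside peaks (0.0491%) lay, against 0.0484% of all. The next highest fold among member peaks, 3.85 at chr12:45122900-45123126 with 24 reads, had none of the 18 euchromatin lists at its summit. The 8 peaks were singled out after their values were seen.

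Other regions were named by length and by their euchromatin lists. The longest member peaks were chr5:48643192-48644546 (1355 bp, fold 3.31), chr8:12899345-12900543 (1199 bp, fold 2.37) and chr10:22206016-22207164 (1149 bp, fold 2.37), each with H3K27me2 and at least 4 constitutive heterochromatin lists at the summit. The most euchromatin lists, 14, met at chr10:56122993-56123268, which was an ordinary H3K23me3 peak with a fold of 2.05, a pileup of 12 reads and no Input contact. It held H3K4me3, H3K9ac, H3K27ac and 3 constitutive lists, and H3K9me2 covered 55.8% of it, so that it sat at the edge of an H3K9me2 domain. The other member peaks with the most euchromatin lists were those at the end of chromosome 8. No annotation of the build was used, so genes and transposable elements at these positions are not given.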

How the data were processed

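ChIP-seq peak lists of 27 targets and the Input were used, 17 in narrow and 11 in broad format. Per the study's methods and the submitters' processing notes, the authors trimmed reads (Trimmomatic 0.38), aligned them to the M82 genome version 1 (Bowtie2 2.3.5), discarded mapping qualities under 30 (SAMtools 1.9) and called peaks with MACS2 2.2.7.1. The limit for calling a peak was a p-value of 0.05, without correction for multiple testing. The sources used here do not state whether the Input served as control. The authors deposited, per peak, a fold enrichment (a ratio), the −log10 of a p-value and of a q-value, and a display score. Narrow peaks also had a summit offset.

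Pileup and background were solved here from the fold, (pileup + 1)/(background + 1), and the Poisson p-value. All solved H3K23me3, Input and H3K4ac pileups were whole within 0.02 reads. Depth is unknown, so weak peaks, most of the set, carry wide error. Overlaps were counted in bases, and a list counted at a peak when it held the summit. Chromosome length was the last peak end in any list. Python 3.11.15, numpy 2.4.6, pandas 2.3.3, SciPy 1.17.1 and matplotlib 3.10.9 were used, and the scripts were tested on simulated data. Alternatives covered coverage, q-value, pileup, width, Input contact, windows of 1 Mb, list format and leaving out each target.

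Regions were named by rule: the 5 member peaks of highest fold, the 3 longest, the 3 in the most euchromatin lists, and the H3K9me2 peak holding the most. Member peaks, lists and classes were chosen with earlier results of these data known. No genome or annotation of this build was used, and no sequence is printed.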

Additional observations from a re-analysis of the deposited data

Results flagged for a closer look

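H3K23me3 peaks on unplaced sequences entered no comparison. Of 204 such peaks, 195 (95.6%, 95% Wilson interval 91.8 to 97.7) lay inside H3K9me2 by the same rule. Of 345 Input peaks on unplaced sequences, 324 (93.9%, 90.9 to 96.0) did, so the share was the higher one for H3K23me3 but the intervals, which cover counting error only, overlap. None of 84 chloroplast and 180 mitochondrial H3K23me3 peaks lay inside H3K9me2, and none of 156 chloroplast and 444 mitochondrial Input peaks did. Among the 5 constitutive heterochromatin lists, no log2 ratio of member to outside summits stood far from the others: the widest gap at an end, for H3K27me1, was 0.37 of the range, against Dixon's critical value of 0.71.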

How the results depend on the processing

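The class difference between member and outside peaks kept its direction and its side of 0.05 in 38 of 38 alternatives, between 5.68 (broad lists alone, p = 0.0357) and 11.50 (q-value under 0.05), and between 10.29 and 11.09 on leaving out each target, in the exact permutation test. H3K9me2 chose the member peaks and defines 1 of the classes in these alternatives too, so their count gives no independent support for the direction. The class difference between member and Input peaks, euchromatin minus constitutive, passed in none of 35 and lay between 0.03 and 0.24 on leaving out each target. It turned to −0.060 for member peaks without Input contact, −0.72 at widths of the middle 50% of member peaks, −0.38 with H3K4ac peaks in place of Input peaks and −0.25 over lists with 50 or more member summits. The last 2, pileups of 11 to 17 reads, and leaving out 20 kb at sequence ends (0.067) were chosen after seeing the data. A q-value under 0.05 left 15094 member peaks, and a pileup above 36 left 3, so values under that limit rest on 3 peaks. The difference in Input contact, −25.3 points, became −40.3 under the q-value limit, −10.3 at widths of the middle 50%, −14.6 within 1 Mb windows, −10.3 for summits, −5.75 for 50% coverage, −19.4 for Input folds above 2, −11.4 at pileups of 11 to 17 reads, and 18.6 above 36 reads. The median difference in fold, −0.16, became −1.42 (q-value), −0.23 (above 36 reads), −0.050 (no Input contact) and −0.0098 (11 to 17 reads). That in width, −41 bp, became −322, −531, −8 and −1 bp under the same limits in that order, and that in pileup, −1 read, became −11, −18, 0 and 0 reads. The terminal share, 4.11%, was 100% above 36 reads and 19.8% for zones of 20%. The range of the member share over chromosomes, 14.2 points, was 16.5 points under the q-value limit and 0.21 points above 36 reads. The causes of these shifts were not tested. No paired analysis was possible because each target had 1 library. Depth is unknown, and peaks of 11 to 17 reads, the bulk of the set, lie close to the background.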
